A study of Mus musculus with 6 samples.

Results

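The vehicle group of this series comprised 2 RNA-seq libraries out of 6, defined by their labels, and the text below describes what the cells in these 2 libraries transcribed. NIH/3T3 is an immortalised fibroblast line derived from mouse embryos and is widely used as a fibroblast model. In this study the line was grown in complete DMEM for 72 h with PBS as vehicle (vehicle), with 1 ng/ml of the cytokine TGF-b1 and DMSO as solvent (TGF-b1 with DMSO), or with 1 ng/ml TGF-b1 and 5 μM BI6727, an inhibitor of the mitotic kinase PLK1 (TGF-b1 with BI6727). Each group had 2 replicates, and all of them came from the same established line, so no spread between animals enters any value. Nothing in the labels says that the replicates were separate cultures, and the p-values below therefore measure only the spread between these libraries. The vehicle libraries had received PBS and no DMSO, so that TGF-b1 and its solvent cannot be told apart in a comparison with vehicle. The extraction text in the labels describes powdered tissue, although the samples are labelled as the cell line.

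Fibroblasts make the fibrillar collagens, proteoglycans and adhesive glycoproteins of connective tissue, and they hold on to this matrix through integrins. They divide in response to growth factors of serum and platelets, which bind receptor tyrosine kinases and G protein-coupled receptors. They also release chemokines when receptors of the interleukin-1, interleukin-6 and Toll-like families are engaged, and TGF-b, which acts through a pair of receptor kinases and the SMAD proteins, turns them towards contractile myofibroblasts.

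The vehicle libraries held 19371925 and 22135574 counts over 54752 annotated genes, within the 18362378 to 24452153 counts of the 6 libraries. Levels are given as TPM, the count of a gene divided by its exonic length and scaled to the same sum in each library, and in places as CPM, the count scaled in the same way without length. At 3 counts, the floor used here, a gene would reach 0.155 CPM in vehicle replicate 1 and 0.136 CPM in replicate 2, and a gene at or under 3 counts in each library was treated as not detectable at this depth. Genes at 1 TPM or more in both libraries numbered 12756, of which 30 did not exceed the floor. Among the 21908 nuclear protein-coding genes, 892 had 100 TPM or more in both libraries, 5796 had 10 to 100 TPM and 3890 had 1 to 10 TPM. By contrast, 8997 (41.1%) were at or under the floor and 7767 had no count at all. Those at 1 TPM or more made up 48.3%, and the counts of each list below are to be read beside these shares. The lists were chosen with earlier results of these data known, so their shares of detected or called genes are descriptive only. The replicates were close to each other: over the 7678 genes at 10 TPM or more the median coefficient of variation was 4.19%, and 46 of them differed by more than 1.5-fold. The counts nevertheless differed by more than counting error, with a chi-square per degree of freedom of 6.21 over 14011 genes, so the libraries were counted as 2 samples.

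The sequences that bear on the levels are those just before the transcription start, where the TATA box and its variants lie. Of the 21831 nuclear protein-coding genes of 200 bases or more, 16522 were matched by symbol, chromosome and strand to a RefSeq promoter (GRCm38.p6, 250 bases before the start to 50 after it). The bases shown are the 100 bases before the start on the strand of the gene, written 5′ to 3′. Prl2c3 and Prl2c5 are shown because they are near-identical proliferin genes with very different levels, Ccn1 and Ccl8 because they are highly transcribed genes of secreted proteins with a TATAAA close to the start, Cxcl1 because it holds a match to the NF-kB motif, and Eef2 because it was the highest gene with TATAAA in the last 50 bases. Capitals mark TATATAA in the proliferins, the NF-kB match in Cxcl1 and TATAAA in the others.
Prl2c3, chr13:12800080-12800179, minus strand: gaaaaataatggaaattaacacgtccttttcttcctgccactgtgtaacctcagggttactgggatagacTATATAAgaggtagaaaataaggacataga
Prl2c5, chr13:13182616-13182715, plus strand: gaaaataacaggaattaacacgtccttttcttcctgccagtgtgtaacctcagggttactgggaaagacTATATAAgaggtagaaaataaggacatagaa
Ccn1, chr3:145649986-145650085, minus strand: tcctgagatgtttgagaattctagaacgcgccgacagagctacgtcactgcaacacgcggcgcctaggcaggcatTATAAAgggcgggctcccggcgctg
Ccl8, chr11:82115085-82115184, plus strand: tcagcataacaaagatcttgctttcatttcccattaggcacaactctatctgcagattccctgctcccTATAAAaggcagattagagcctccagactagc
Cxcl1, chr5:90891145-90891244, plus strand: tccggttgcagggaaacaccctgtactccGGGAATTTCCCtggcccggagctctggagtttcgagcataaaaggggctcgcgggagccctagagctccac
Eef2, chr10:81176531-81176630, plus strand: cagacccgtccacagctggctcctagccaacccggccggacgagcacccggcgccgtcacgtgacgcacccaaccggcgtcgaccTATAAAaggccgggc

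The printed bases of Prl2c3 and Prl2c5 were identical at 95 of 102 aligned positions (93.1%), and both held TATATAA, which begins 30 and 31 bases before the start. Their levels in vehicle were 1336 ± 129 TPM for Prl2c3 and 7.25 ± 1.08 TPM for Prl2c5 (SD, n = 2). The reading of the level is limited by the sequence itself, since 60.0% of the 50-base windows of Prl2c3 and 35.1% of those of Prl2c5 also occur in other genes. TATAAA began 25 bases before the start in Ccn1 and 32 bases in Ccl8.

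Over all matched promoters, TATAAA on either strand of the 300-base window was found in 12.8%. The share was 21.8% of the 6414 promoters of genes at or under the floor, 11.05% of the 1684 under 1 TPM, 6.73% of the 3062 at 1 to 10 TPM, 5.74% of the 4670 at 10 to 100 TPM and 9.25% of the 692 at 100 TPM or more. Genes that were not detectable in vehicle thus carried these letters more often than detected ones, and among detected genes the share was lowest in the middle class and higher again at the top. The same order of the extremes was seen when only the last 50 bases on the strand of the gene were read, with 6.28% at the floor, 1.03% at 10 to 100 TPM and 2.46% at 100 TPM or more against 3.43% overall. CCAAT, read on both strands, varied little, from 37.3% at the floor to 40.6% in the top class.

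**Figure D1:**
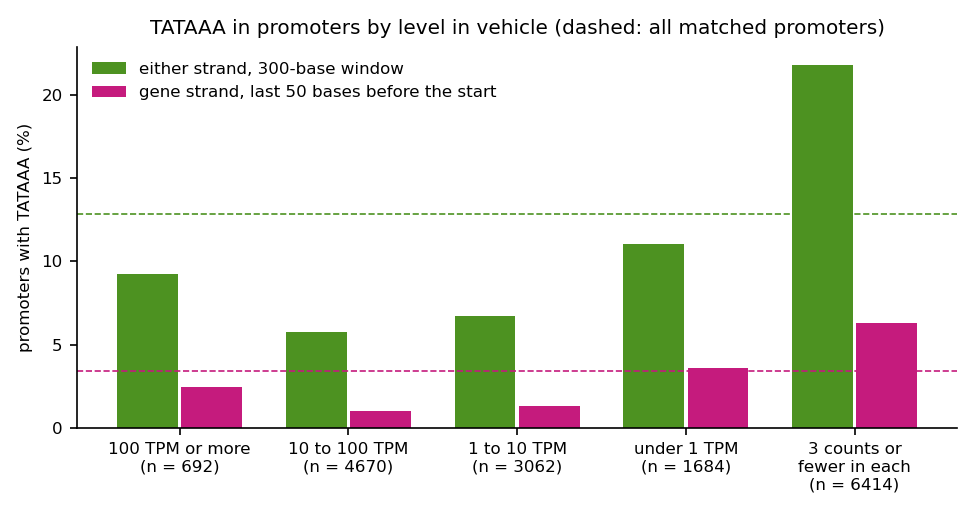
Share of promoters that hold TATAAA (percent, y axis) by the level of the gene in vehicle (x axis, with the number of promoters), for either strand of the 300-base window and for the last 50 bases before the start on the strand of the gene; dashed lines are the shares over all matched promoters. The bars of the genes at or under the floor stand highest (21.8% and 6.28%) and those at 10 to 100 TPM lowest (5.74% and 1.03%).

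The label of these libraries as fibroblasts was set beside 20 marker genes. As the list was chosen with earlier results of these data known, it is no independent check of the label. Of the 20 markers, 18 (90%) were at 1 TPM or more in both libraries, beside 48.3% of all nuclear protein-coding genes, and 9 of them at 100 TPM or more. The summed level was 4194 TPM in replicate 1 and 3892 TPM in replicate 2. Vim, the intermediate filament protein of mesenchymal cells, led with 1670 and 1721 TPM. The proteoglycan Dcn had 422 and 326 TPM, and the calcium-binding matrix protein Sparc had 356 and 310.5 TPM. Among the collagens, Col6a1 had 348 and 290 TPM, Col1a2 311 and 271 TPM, Col1a1 133 and 113 TPM and Col3a1 47.3 and 46.2 TPM. Fn1, which encodes fibronectin, had 243 and 221 TPM. The transcription factor Prrx1 had 132 and 118 TPM, the surface protein Thy1 128 and 110 TPM, and the PDGF receptors Pdgfrb and Pdgfra 63.3 ± 7.04 and 53.7 ± 2.97 TPM. The protease gene Fap, with 2 and 0 counts, and the transcription factor gene Tcf21, with no count in either library, were not detectable.

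Against this, 33 of 54 markers of 10 other cell types were at or under the floor and 6 reached 1 TPM in both libraries. Over all nuclear protein-coding genes these shares were 41.1% and 48.3%. None of the 8 epithelial markers reached 1 TPM: Epcam, Krt5, Krt8, Krt18, Krt19 and Cldn4 had no count, and Cdh1, which encodes E-cadherin, had 4 and 7 counts. The hepatocyte genes Alb, Apoa1 and Ttr had none, nor did the blood genes Cd3e and Adgre1, and the pan-leukocyte gene Ptprc had 6 and 4 counts. The endothelial genes Kdr and Emcn had no count, whereas Cdh5 had 0 in one library and 11 in the other. Myod1 and Myog, the determinants of skeletal muscle, also had none. The 6 markers that were detected are known from mesenchymal cells as well or are not exclusive to their lineage: Acta2, the smooth muscle actin that marks myofibroblasts, with 102 and 110 TPM, the chondrocyte regulator Sox9 with 60.0 and 64.3 TPM, Smtn with 15.0 and 16.6 TPM, the tubulin Tubb3 with 13.1 and 10.2 TPM, the bone regulator Runx2 with 9.92 and 9.06 TPM, and the lysosomal protein Cd68 with 5.38 and 6.99 TPM. The smooth muscle genes Cnn1 (25 and 21 counts) and Myh11 (2 and 1 counts) were low. The 9 and 6 counts of Tagln cannot be read as a low level, because 67.9% of its exonic length overlaps other genes and reads there may not have been counted.

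**Figure D2:**
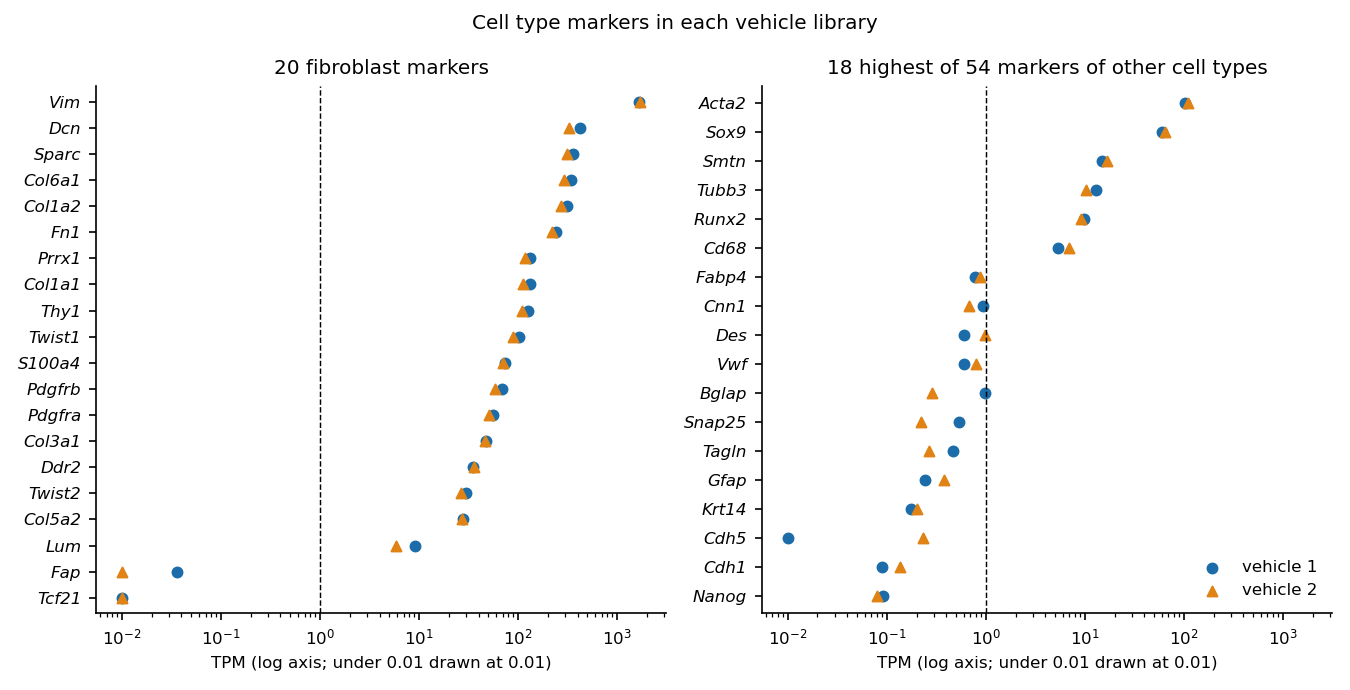
TPM (x axis, log scale, values under 0.01 drawn at 0.01) of the 20 fibroblast markers and of the 18 highest of 54 markers of other cell types in vehicle replicate 1 (circles) and replicate 2 (triangles). In the left panel 18 genes lie right of the dashed line at 1 TPM, led by Vim at 1695 TPM, and in the right panel 6 do, led by Acta2 at 106 TPM.

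The 10 highest genes held 12.5% and 13.8% of all TPM in the 2 vehicle libraries and the 100 highest held 40.5% and 41.7%. The mean share of the 100 highest, 41.1%, was 26.2% with only nuclear protein-coding genes in the scale and 19.3% as a share of counts. Mitochondrially encoded mRNAs led the list of genes of 200 bases or more. The cytochrome oxidase gene mt-Co1 had 20883 ± 183 TPM, followed by mt-Nd1 with 17712 ± 709 TPM, mt-Cytb with 12858 ± 107 TPM, mt-Nd2 with 9174 ± 274 TPM and, lower, mt-Nd5 with 4646 ± 33.0 TPM. Mitochondrial genes took 4.66% and 4.77% of the counts. The highest nuclear protein-coding genes were Eef1a1, the elongation factor that brings tRNA to the ribosome, with 7268 ± 312 TPM, the galectin Lgals1 with 6361 ± 286 TPM, the proliferin Prl2c2 with 6047 ± 209 TPM and the ferritin heavy chain Fth1 with 5272 ± 185 TPM. Lgals1 was above Prl2c2 in each library. Their replicate ranges (6159 to 6563 TPM and 5899 to 6194 TPM) overlapped, so the order is not resolved beyond these 2 libraries.

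The other 16 of the 25 highest genes were annotated as processed pseudogenes, intronless copies of mRNAs, and most of them share their sequence with a gene of the translation machinery. Tpt1-ps3 had 9359 ± 350 TPM while its parent Tpt1 had 141 TPM, and all 50-base windows of Tpt1-ps3 occur in Tpt1. The same complete identity was found for Gm10123 with Ppia (6782 TPM), Gm9843 with Fau (4808 TPM), Rps16-ps2 with Rps16 (4765 TPM), Gm7536 with Rpl27a (4764 TPM), Rpl31-ps8 with Rpl31 (4327 TPM) and Rps6-ps4 with Rps6 (4263 TPM). In Gm9794, Gm10275, Gm6472 and Gm4332, between 77.9% and 94.2% of the windows occurred in Rpl23, Rpl12, Rps7 and Rps20, at 5799, 5731, 5106 and 4328 TPM. The share with the parent was lower for Rps19-ps6 (67.6% in Rps19, 4519 TPM), Rps26-ps1 (59.8% in Rps26, 4775 TPM), Gm13456 (49.2% in Eef1a1, 5221 TPM), Gm8730 (39.4% in Rplp0, 4953 TPM) and Gm11478 (34.7% in Rpl13a, 6613 TPM). Processed pseudogenes took 10.7% and 10.8% of the counts and, because they are short, 37.8% and 37.6% of the TPM. A level of these copies or of their parents is therefore uncertain, and 5.88 TPM for Gapdh, the glycolytic enzyme that 213 pseudogenes resemble over at least 1 window, is no measure of its mRNA.

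By counts, which favour long mRNAs, mt-Co1 was again first with 16331 ± 29.6 CPM, and Eef1a1 (9173 ± 457 CPM), Eef2 (4585 ± 5.19 CPM) and Vim (4071 ± 114 CPM) were among the first 8. Il1rl1, the interleukin-33 receptor ST2, and Ctsl, the lysosomal protease cathepsin L, were also among the 15 genes with most counts, with 2835 ± 106 and 2729 ± 53.1 CPM. Il1rl1 was in none of the lists of receptors and is named after its value was seen. Per length it stood at 813 ± 36.1 TPM, higher than each of the 183 listed receptor genes, while the gene of its ligand, Il33, had 19.4 and 10.1 TPM. Counts per gene do not separate isoforms, so the value for Il1rl1 is a level of the gene and not of a receptor protein.

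Of 47 genes of matrix glycoproteins and proteoglycans, 37 were at 1 TPM or more and 12 of these at 100 TPM or more, and 21 of 44 collagen chains were at 1 TPM or more and 4 at 100 TPM or more, beside 48.3% of all nuclear protein-coding genes at 1 TPM or more. Spp1, which encodes the secreted phosphoprotein osteopontin, had 1820 and 1729 TPM, the highest of both lists. It was followed by the proteoglycan Bgn with 449 and 408 TPM, the thrombospondin Thbs2 with 418 and 355 TPM, Dcn, and the fibulin family member Efemp1 with 371 and 314 TPM. Below these, besides Sparc and Fn1, were the basement membrane linker Nid1 with 258 ± 14.4 TPM, the elastic fibre proteins Efemp2 with 217 ± 16.4 TPM, Fbln2 with 184 ± 21.1 TPM and Fbln5 with 108 ± 5.38 TPM, and the CCN proteins Ccn5 with 135 ± 23.7 TPM and Ccn1 with 105 ± 10.95 TPM. Eln, the elastin gene itself, had no count, nor did Fbn2, Mfap2 and Lama1, and Fmod had 2 and 0 counts. Fbn1, which encodes the main microfibril protein, had 2.57 ± 0.0560 TPM.

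Collagen chains ranged from over 100 TPM to the floor, with 10 chains at 10 to 100 TPM, 7 at 1 to 10 TPM and 11 under 1 TPM. Col6a1 (319 ± 40.9 TPM), Col1a2 (291 ± 28.5 TPM), Col16a1 (148 ± 10.7 TPM) and Col1a1 (123 ± 14.0 TPM) were highest. Type I collagen is built from 2 chains of Col1a1 and 1 of Col1a2, whereas here the TPM of Col1a2 was above that of Col1a1 in each replicate. The beaded-filament chains Col6a2 and Col6a3 had 99.8 ± 10.0 and 37.4 ± 1.38 TPM, and the basement membrane chains Col4a1, Col4a2, Col4a5 and Col4a6 lay between 22.5 and 37.7 TPM. At or under the floor were 12 chains, namely Col6a4, Col6a6, Col8a2, Col9a1, Col13a1, Col19a1, Col23a1, Col25a1 and Col26a1, all with no count, and Col4a4, Col9a2 and Col15a1. Col2a1, the cartilage collagen, had 4 and 8 counts although its regulator Sox9 was detected.

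Of 183 receptor genes in 6 lists, 96 (52.5%) were at 1 TPM or more in both vehicle libraries, beside 48.3% of all nuclear protein-coding genes. At or under the floor were 55, beside 41.1% of those genes. Among 58 receptor tyrosine kinases, 24 (41.4%) were detected at 1 TPM or more. Axl, which binds GAS6 and protein S, was the highest with 319 and 343 TPM, about 3 times Fgfr1, the second with 111 and 103 TPM. By counts, which are not divided by length, the gap in vehicle was smaller. Axl had 15649 and 19447 counts and Fgfr1 10695 and 11477, so the factor of 3 depends on the exonic lengths used. The Wnt-binding pseudokinases Ryk and Ptk7 had 74.2 ± 3.33 and 55.9 ± 1.40 TPM, and the collagen receptors Ddr1 and Ddr2 had 36.6 ± 2.21 and 35.6 ± 0.471 TPM, which did not differ beyond their spread. Ephb4 with 39.1 TPM, Erbb2 with 20.5 TPM and the HGF receptor Met with 18.2 TPM were moderate, and the insulin-like growth factor and insulin receptors Igf1r and Insr were low with 5.56 and 3.54 TPM. Egfr, the receptor of epidermal growth factor, had only 10 and 28 counts, 0.0905 and 0.220 TPM, and Erbb3 had 4 and 16 counts. Among the 22 kinases at or under the floor, 19 had no count, among them Kit, Flt3, Kdr, Flt4, Erbb4, Ntrk2, Ret, Alk and Ros1.

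The receptors of the TGF-b family covered 10 of 14 genes at 1 TPM or more. The co-receptor Tgfbr3 (betaglycan) had 41.5 and 33.3 TPM, the signalling receptors Tgfbr1 and Tgfbr2 had 26.1 and 24.9 TPM and 21.8 and 22.8 TPM, and the BMP receptor Bmpr1a had 31.7 and 30.1 TPM. Bmpr1b and Amhr2 had no count and Acvr1c had 0 and 2. All 8 SMAD genes, which encode the transducers of these receptors and their inhibitors, were at 1 TPM or more, from 4.52 TPM for Smad9 to 44.5 TPM for Smad4, the shared partner.

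Of 19 receptors of the Wnt, Notch and Hedgehog pathways, 12 were detected. Smo, the transducer of Hedgehog signals, was the highest with 96.1 and 93.8 TPM, while the Hedgehog receptor and target Ptch1 had 1.82 and 1.97 TPM. The Wnt receptors Fzd1 and Fzd2 had 49.1 ± 6.97 and 45.9 ± 4.42 TPM. Notch2 was the highest Notch with 7.90 ± 0.693 TPM, and Notch1, Notch3 and Notch4 were under 1 TPM. Among 26 integrin subunits, 13 were at 1 TPM or more. Itgb1, the common beta chain, had 269 and 277 TPM, its fibronectin-binding partner Itga5 had 74.0 and 78.4 TPM, and Itgb5 and Itgav, which pair as a vitronectin receptor, had 64.1 and 25.3 TPM. The collagen-binding alpha chains Itga1, Itga2 and Itga10 were under 1 TPM, with 33.5% of the length of Itga10 overlapped by other genes, and Itga11 had 2.38 and 1.90 TPM, so that no alpha chain dedicated to collagen exceeded 10 TPM. Itga4, Itgax and Itgb6 had no count. The leukocyte chain Itgam, with 1 and 0 counts, overlaps another gene over 68.7% of its length, and its absence cannot be read from these counts.

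The innate and cytokine receptors were the most complete of the receptor lists, with 22 of 30 at 1 TPM or more. The TNF receptor Tnfrsf1a had 179 and 165 TPM, and Il6st, the shared signalling chain gp130 of the interleukin-6 family, had 69.2 and 63.0 TPM. The interleukin-13 receptor Il13ra1 had 53.8 and 51.9 TPM. The pattern receptors Tlr2 and Tlr4, which detect bacterial lipoproteins and lipopolysaccharide, had 44.7 and 31.7 TPM and 36.9 and 35.3 TPM, and Il1r1, the interleukin-1 receptor, had 35.4 and 31.1 TPM. Il10ra, Csf2ra, Tlr5, Tlr8 and Tlr9 had no count, and Il2rg had 3 and 2 counts over a gene that overlaps others for 30.5% of its length. Of 36 G protein-coupled receptors for serum and vasoactive ligands, 15 were detected, led by Lpar1, the lysophosphatidic acid receptor, with 101 and 91.2 TPM, and the thrombin receptor F2r with 73.7 and 69.7 TPM. The sphingosine phosphate receptors S1pr3, S1pr1 and S1pr2 had 36.3 ± 3.29, 20.4 ± 4.67 and 19.7 ± 0.572 TPM, of which S1pr1 and S1pr2 did not differ beyond their spread. The angiotensin receptors Agtr1a and Agtr1b, the endothelin receptor Ednrb, the adrenergic receptor Adrb1 and the chemokine receptor Cxcr4 had no count.

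**Figure D3:**
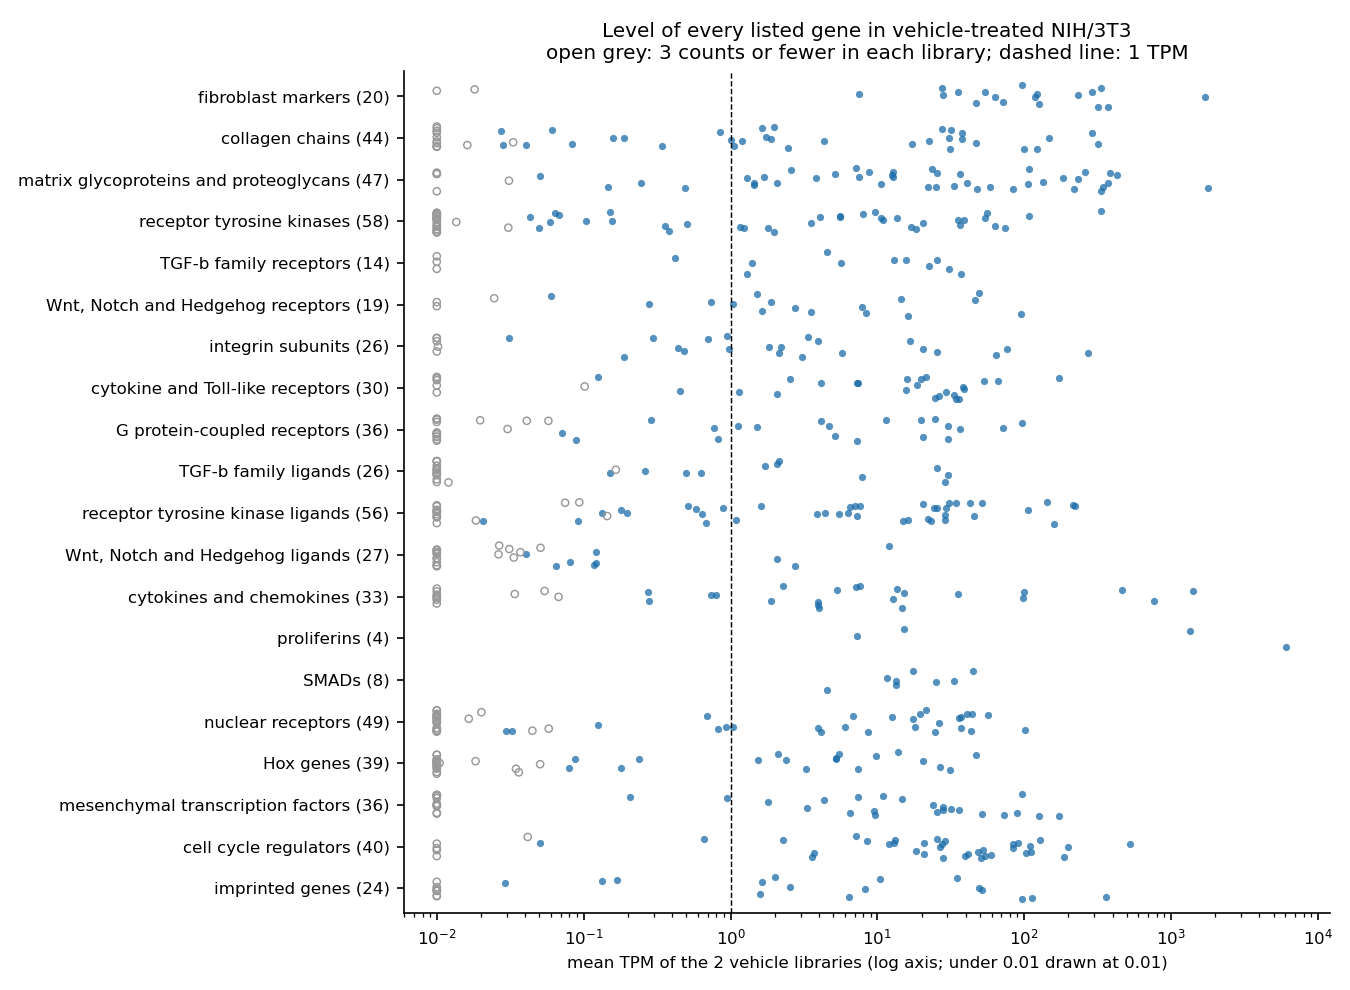
Mean TPM over the 2 vehicle libraries (x axis, log scale, values under 0.01 drawn at 0.01) of every member of 20 gene lists (y axis, with the number of members); open grey circles are genes at or under 3 counts in each library and the dashed line is 1 TPM. All 8 SMADs and 18 of 20 fibroblast markers lie right of the line, and 3 of 27 Wnt, Notch and Hedgehog ligands do.

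Of 146 ligand genes, 61 (41.8%) were at 1 TPM or more, beside 48.3% of all nuclear protein-coding genes. At or under the floor were 60, beside 41.1% of those genes. Among 56 ligands of receptor tyrosine kinases, 29 were detected. The heparin-binding growth factor Ptn (pleiotrophin) had 232 and 211 TPM and the keratinocyte growth factor Fgf7 had 234 and 195 TPM, and their ranges overlapped. Stem cell factor, Kitl, had 151 and 168 TPM, the macrophage growth factor Csf1 had 142 and 146 TPM, and Vegfb had 108 and 104 TPM. Fgf10, another ligand of the epithelial FGF receptor, had 25.6 ± 2.68 TPM, and Hgf had 24.4 ± 4.17 TPM. Mdk, the paralog of Ptn, had 2 counts in each library, Igf1 had 4 and 0, and Pdgfb, Pdgfd, Tgfa, Fgf1, Fgf5 and Fgf9 had none.

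Set beside the receptors, ligand and receptor were both detected at 10 TPM or more for PDGF (Pdgfc 31.0 TPM and Pdgfa 28.9 TPM with Pdgfrb and Pdgfra), for HGF and Met, for GAS6 and protein S with Axl (Gas6 29.3 TPM, Pros1 51.4 TPM), and for TGF-b (Tgfb3 28.7 TPM and Tgfb1 25.4 TPM with Tgfbr1 and Tgfbr2). In the FGF family, Fgf7 and Fgf10 stood at 214 and 25.6 TPM, Fgfr1 at 107 TPM and Fgfr2 at 9.63 TPM. Several other ligands had no receptor at 10 TPM or more. Kitl stood at 159 TPM while Kit had no count. Csf1 stood at 144 TPM while its receptor Csf1r had 19 and 20 counts, 0.399 and 0.364 TPM. Vegfa, Vegfb and Vegfd stood at 45.8, 106 and 42.7 TPM while Kdr and Flt4 had no count and Flt1 had 0.440 and 0.572 TPM. The neurotrophin Bdnf stood at 20.4 TPM while its receptor Ntrk2 had no count and Ntrk3 had 0 and 1, and Gdnf stood at 14.9 TPM while Ret had none. Ereg, an EGF family ligand, stood at 22.1 TPM while Egfr and Erbb4, the receptors it is known to bind, were at 0.155 TPM and 0. Erbb2, of the same receptor family, was at 20.5 TPM. For the insulin-like growth factors, Igf1r was at 5.56 TPM and Igf1 at 0.0207 TPM, and the 0 counts of Igf2 cannot be read as absence, since 64.5% of its exonic length overlaps other genes.

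**Figure D4:**
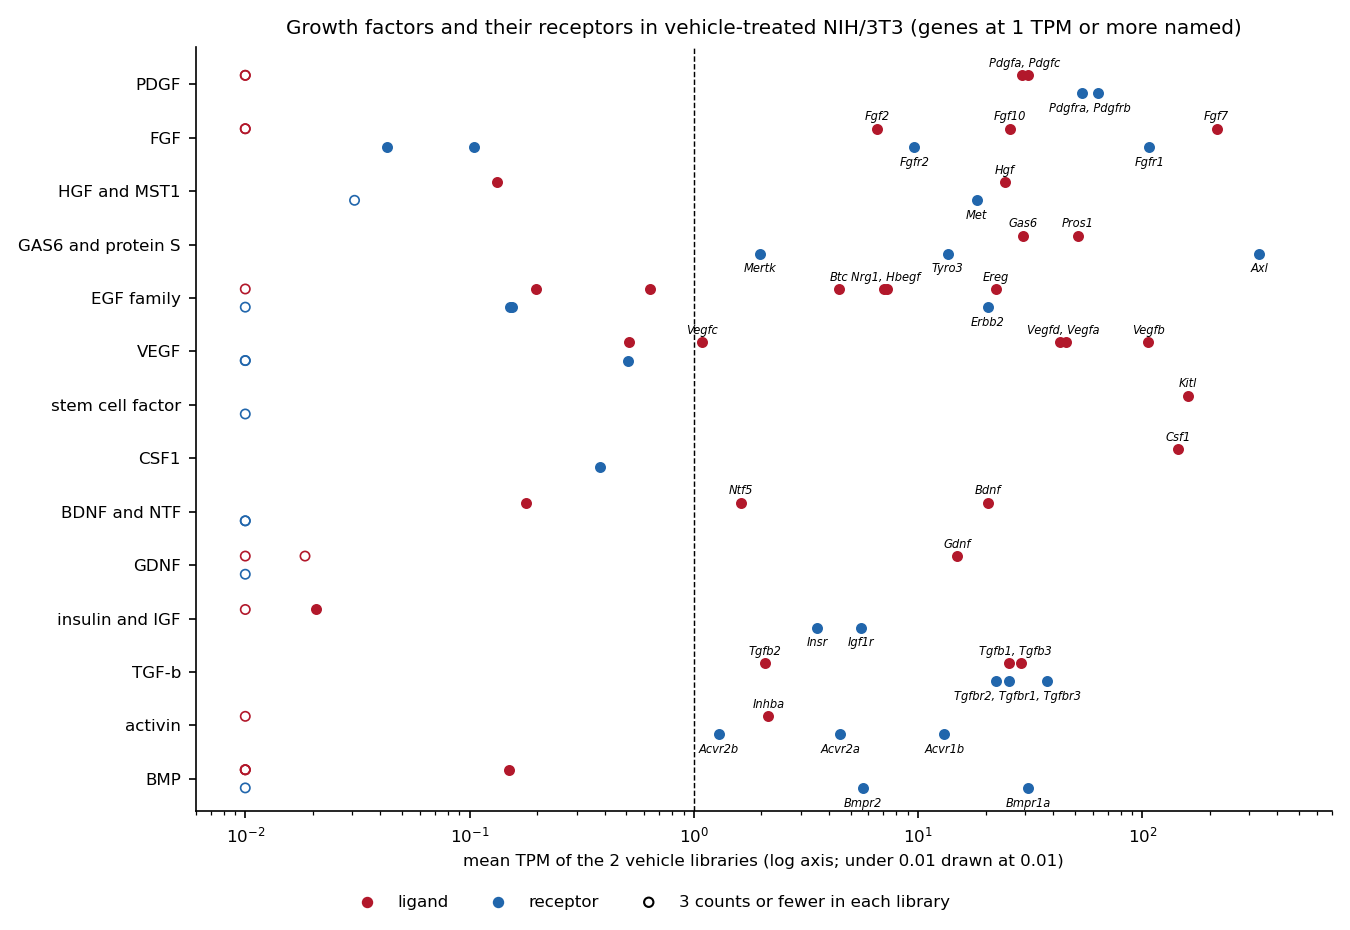
Mean TPM over the 2 vehicle libraries (x axis, log scale, values under 0.01 drawn at 0.01) of ligands (red) and receptors (blue) in 14 growth factor families; open circles are genes at or under 3 counts in each library and genes at 1 TPM or more are named. For PDGF, FGF, HGF, GAS6, the EGF family, TGF-b and activin both colours lie right of the dashed line at 1 TPM. For stem cell factor, CSF1, VEGF, BDNF and GDNF only ligands do, and for insulin and IGF and for BMP only receptors.

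Of 26 ligands of the TGF-b family, 7 were at 1 TPM or more, led by Gdf11 with 29.8 and 30.5 TPM, Tgfb3 with 27.3 and 30.2 TPM and Tgfb1 with 22.5 and 28.3 TPM, and the range of Tgfb3 overlapped with those of the other two. Bmp2, Bmp4, Bmp7, Nodal and Mstn had no count. Of 27 Wnt, Notch and Hedgehog ligands only Wnt5a (12.9 and 11.1 TPM), Wnt9a (3.02 and 2.51 TPM) and Jag1 (2.00 and 2.12 TPM) reached 1 TPM in both libraries, and Wnt1, Wnt2, Wnt3, Wnt4, Wnt7a and Wnt11 had no count. Shh and Dhh had none either, although 28.3% and 25.2% of their lengths overlap other genes, and Ihh had 2 and 6 counts.

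Some chemokines were among the highest mRNAs of the vehicle cells. Of 33 cytokines and chemokines 18 (54.5%) were at 1 TPM or more, beside 48.3% of all nuclear protein-coding genes. Only 3 were at 100 TPM or more in both libraries, and 11 were at or under the floor. The median of the list was 2.26 TPM. Ccl2, the attractant of monocytes, had 1459 and 1357 TPM and was the 27th of the nuclear protein-coding genes. Its neighbour Ccl7 had 810 and 720.1 TPM and the neutrophil attractant Cxcl5 had 548 and 380 TPM. Ccl8 had 119 and 81.0 TPM and Cxcl1 had 123 and 73.3 TPM, both higher in replicate 1, and their ranges overlapped. Tnf had 0 and 2 counts, and Il1b, Il10, Il13, Osm and Ccl20 had none, so that the interleukin-1 and TNF receptors were detected without Il1b and with Tnf under the floor. The NF-kB motif shown in the Cxcl1 promoter occurred in 3 of the 12 cytokine and chemokine promoters that could be matched at 1 TPM or more, those of Cxcl1, Il6 and Cxcl10, and in 4.23% of all promoters. Ccl2, Ccl7 and Cxcl5 had no matched promoter. The proliferins, prolactin-related proteins first known from growing mouse fibroblasts, were all detected, with Prl2c1 at 15.1 ± 2.08 TPM between the high Prl2c2 and Prl2c3 and the low Prl2c5. Of the windows of Prl2c2, 83.3% occur in other genes, so the split between the copies is uncertain.

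Among 195 regulators, 109 (55.9%) were at 1 TPM or more, beside 48.3% of all nuclear protein-coding genes. Of 36 mesenchymal transcription factors 21 were detected, with Prrx2 at 181 and 165 TPM, Prrx1, Twist1 at 103 and 90.2 TPM, Snai1 at 101 and 78.5 TPM, Osr1 at 76.1 and 69.7 TPM and Foxf2 at 55.6 and 48.3 TPM. Position was marked by the limb and body wall factors Tbx15 (35.9 TPM), Shox2 (25.6 TPM) and En1 (23.7 TPM), while Tbx5, Pitx1, Lmx1b, Msx1, Msx2, Pax1, Pax3 and Pax7 had no count. Of 39 Hox genes, which record position along the body axis, 14 were at 1 TPM or more. The highest were Hoxd8 with 46.6 and 47.3 TPM, Hoxa7 with 30.9 and 31.4 TPM, Hoxa5 with 30.5 and 23.2 TPM, Hoxd9 with 20.9 and 20.1 TPM and Hoxc6 with 14.3 and 13.4 TPM. All detected Hox genes belonged to groups 1 to 10, and Hoxa13, Hoxb13, Hoxc13 and Hoxd13 had no count. Hoxd3 and Hoxd4 cannot be judged, with 62.8% and 100% of their lengths shared with other genes.

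Of 49 nuclear receptors 20 were detected, led by the retinoic acid receptor Rarg with 97.9 and 104 TPM, its partners Rxrb and Rxra with 43.9 and 40.6 TPM, and the oxysterol receptor Nr1h2 with 56.3 TPM. The glucocorticoid receptor Nr3c1 had 26.6 and 25.5 TPM. The progesterone and beta estrogen receptors Pgr and Esr2 had no count, Esr1 had 0 and 10, and the adipogenic receptor Pparg had none. Among 40 cell cycle regulators 33 were detected, with Cdk4 at 538 and 506 TPM, the inhibitor Cdkn1a at 189 and 206 TPM, Cdkn2c at 193 and 178 TPM, the mitotic kinase Cdk1 at 131 and 126 TPM and Plk1, the target of BI6727, at 88.5 and 93.6 TPM. Trp53 had 106 and 98.9 TPM and the proliferation marker Mki67 27.2 and 30.6 TPM. Cdkn2a and Cdkn2b, the adjacent inhibitor genes of the Ink4 locus on chromosome 4, which is known to be deleted in NIH/3T3, had no count in any of the 6 libraries, whereas Mtap, their neighbour in mm10 and named after its value was seen, had 10686 and 11859 counts (339 and 326 TPM) in vehicle.

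Of 24 imprinted genes 13 were detected. Dlk1, the paternally transcribed Notch-related protein of preadipocytes, had 378.5 and 344 TPM, and Meg3, its maternally transcribed neighbour, had 2.34 and 1.69 TPM. Impact (113 TPM), Grb10 (97.1 TPM), Ndn (51.7 TPM) and Igf2r (49.2 TPM) followed, and H19, Sgce, Peg10, Magel2, Zdbf2 and Phlda2 had no count. Among the noncoding RNAs, Norad, Gas5 and Snhg1 had 87.2, 83.7 and 49.1 TPM and Malat1 35.3 and 27.6 TPM. Xist, which coats the inactive X chromosome, had 3 and 0 counts, and the 6 Y-linked genes had no count in the vehicle libraries.

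The vehicle libraries were then compared with the treated ones, to find which of these levels belong to cells without TGF-b1. All 6 libraries entered 1 edgeR fit over 14604 genes, with an adjusted p under 0.01 and a fold above 2 as the threshold. In bulk samples, fewer cells of a type and less RNA per cell cannot be told apart. Against TGF-b1 with DMSO, 472 genes were higher in vehicle, 3.23% of those tested, and 402 were lower, 2.75%. Against TGF-b1 with BI6727, 542 genes were higher (3.71%) and 366 lower (2.51%). The comparisons share the vehicle libraries, so their values are given side by side and are not independent. The counts depend on single libraries: against TGF-b1 with DMSO they were 156 and 137 without vehicle replicate 1, 212 and 160 without vehicle replicate 2, and 872 and 591 without TGF-b1 with DMSO replicate 1. In the latter group, mitochondrial genes took 3.41% of the counts in replicate 1 and 5.58% in replicate 2. Nuclear protein-coding genes took 84.7% and 79.5%, processed pseudogenes 10.9% and 13.9%, and the 100 genes with most counts 18.1% and 22.5%. The 2 replicates of that group thus differed broadly in composition, and the part of this in the result was not tested. Leaving out a vehicle replicate left 1 vehicle library, which was assumed to vary like the other groups, so that a call lost there does not show a smaller difference. Of the 123 genes called and named or listed, 61 lost the call in at least 1 alternative, always when a vehicle replicate was left out. Of these, 49 kept a fold above 2 in every alternative that gave a value. Calls also lost in alternatives that kept both vehicle libraries are named as such below.

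The 10 genes described first had the largest excess in vehicle over TGF-b1 with DMSO among those past the threshold and at 10 TPM or more in both vehicle libraries. Values here are TMM-scaled CPM, the CPM after edgeR's scaling between libraries. Saa3, an acute phase protein, had 200.4 and 97.9 in vehicle, 1.38 and 1.08 in TGF-b1 with DMSO and 0.551 and 0.164 in TGF-b1 with BI6727, a log2 difference of 6.91 ± 0.44 (SE) against DMSO with adjusted p = 2.89e-05. Ly6a, the surface antigen Sca-1, had 203 and 155 in vehicle and between 1.43 and 2.59 in the 4 treated libraries, 6.11 ± 0.21 (adjusted p = 2.92e-06). Gas1, known from growth-arrested fibroblasts, had 617 and 470 in vehicle and between 13.4 and 21.6 in the treated ones, 4.86 ± 0.20 (adjusted p = 5.26e-06). In each of these the vehicle and treated ranges lay far apart although the vehicle replicates themselves differed. The gap to TGF-b1 with DMSO follows from the choice of the genes by that difference.

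The other 7 had log2 differences between 4.06 and 6.84. They were Ly6c1, the cysteine dioxygenase Cdo1, haptoglobin Hp, the water channel Aqp1, the pentraxin Ptx3 (186 and 133 in vehicle, 8.75 to 9.83 in TGF-b1 with DMSO), the prostaglandin F receptor Ptgfr (110.2 and 93.0 against 4.61 to 7.25) and Il33 (27.6 and 14.7 against 0.753 to 1.77). The call of Hp was lost without vehicle replicate 1, while its log2 difference stayed between 3.75 and 5.65 over the alternatives.

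At the other end, among genes at 10 TPM or more in both TGF-b1 with DMSO libraries, were genes that were low in vehicle. Ctsw, the protease cathepsin W, had 0 and 2 counts in vehicle and 517 and 570 in TGF-b1 with DMSO, a ratio of 527 with a 95% counting interval of 145 to 4355. Tnnt2, the troponin T of heart muscle, had 7.94 and 9.95 against 216 and 266, -4.75 ± 0.17 (adjusted p = 2.92e-06). The Notch ligand Jag1 had 5.76 and 6.201 against 172 and 119, and the Notch target Hes1 had 2.32 and 3.03 against 56.4 and 55.4. Inhba, the activin A subunit, had 6.52 and 7.14 against 166 and 131, and Ccn2, the connective tissue growth factor, had 30.1 and 32.5 against 381 and 409. Ctsf, Anxa8 and Col5a3 were also among the 10 largest, with log2 differences of -6.70, -5.72 and -4.57. Each of the genes named here was also past the threshold against TGF-b1 with BI6727, where Ccn2 had 253 and 236 and Jag1 173 and 176.5.

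Of the fibroblast markers, 18 entered the test. Of these, 6 were higher in vehicle than in TGF-b1 with DMSO and 0 were lower, beside 3.23% and 2.75% of all genes. The median log2 difference was 0.87 against 0.011 over all genes. Dcn had 1215 and 956 in vehicle and 312 and 245 in TGF-b1 with DMSO (1.96 ± 0.17, adjusted p = 0.000119) and Prrx1 had 722 and 659 against 265 and 201 (1.57 ± 0.14, adjusted p = 0.00018). Pdgfra had 276 and 260 against 95.2 and 52.9 (1.86 ± 0.23, adjusted p = 0.000936). Lum, Col6a1 and Ddr2 were the other 3. The calls of Pdgfra, Lum, Col6a1 and Ddr2 were lost when vehicle replicate 1 was left out. Those of Col6a1 and Ddr2 were also lost without TGF-b1 with DMSO replicate 2, and Col6a1 with only the 2 compared groups in the fit. The lowest log2 differences of Col6a1 and Ddr2 over the alternatives were 0.98 and 0.94. Col1a1 had 430 and 373 in vehicle and 849 and 436.5 in TGF-b1 with DMSO, and its difference of -0.68 ± 0.26 did not pass (adjusted p = 0.0962). Among the markers of other cell types 18 entered the test, 0 were higher and 5 lower in vehicle, beside 3.23% and 2.75% of all genes. Acta2 had 89.7 and 98.2 against 471 and 462 (-2.31 ± 0.11, adjusted p = 7.76e-06). The others were Smtn, Tubb3, Krt14 and Sp7, whose calls were lost when a vehicle replicate was left out. In every alternative that gave a value, their log2 differences were at least 1.02, 1.22, 3.25 and 3.98 in size, and that of Krt14 at most 3.48. Sp7 had only 2 and 0 counts in vehicle.

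Of 119 receptor genes tested, 24 were higher in vehicle and 7 lower than in TGF-b1 with DMSO, beside 3.23% and 2.75% of all genes, with a median log2 difference of 0.30, and 27 were higher and 7 lower than in TGF-b1 with BI6727. Of the calls against TGF-b1 with DMSO, 12 of the 24 and 3 of the 7 held under every alternative that gave a value. The cytokine and Toll-like receptors held 11 of the 24, out of 23 tested and with 0 lower. Osmr, the oncostatin M receptor, had 107 and 85.4 in vehicle, 15.9 and 8.94 in TGF-b1 with DMSO and 12.4 and 11.9 in TGF-b1 with BI6727 (2.96 ± 0.25, adjusted p = 0.000119). Il1r1 had 111 and 99.4 against 28.7 and 21.9 (2.06 ± 0.16, adjusted p = 6.8e-05). Csf2rb, Tlr2, Il1rap and Il13ra1 had log2 differences of 2.82, 1.88, 1.63 and 1.61. These calls and the former ones held under every alternative that gave a value. The calls of Il6st, Il11ra1, Lifr, Fas and Tlr4 did not hold without vehicle replicate 1. That of Fas was also lost with only the 2 compared groups in the fit and without TGF-b1 with DMSO replicate 1. Its lowest log2 difference over the alternatives was 0.98. The Tlr4 call was also lost with DESeq2, with DESeq2 size factors in edgeR and with only the 2 compared groups in the fit. It was lost as well without TGF-b1 with DMSO replicate 2, and its lowest log2 difference was 0.81. Within the same list, Tnfrsf1a had a difference of 0.56 and Ifngr1 of -0.02, both under the fold of 2 that the threshold asks for.

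The G protein-coupled receptors gave 8 higher and 0 lower of 18 tested, beside 3.23% and 2.75% of all genes. Besides Ptgfr, Ptgir, the prostacyclin receptor, had 9.30 and 7.81 against 0.716 and 0.612 (3.68 ± 0.30, adjusted p = 9.42e-05), S1pr3 had 85.0 and 76.1 against 23.5 and 16.0, and Lpar1 had 214.5 and 196 against 93.1 and 81.8. The calls of Bdkrb1, Ptger4, Ednra and S1pr1 were lost without vehicle replicate 1, while the log2 difference of Ptger4 stayed between 1.37 and 1.53. The calls of Ednra and S1pr1 were also lost with only the 2 compared groups in the fit. That of Ednra was lost with replicate as a block too, and that of S1pr1 without TGF-b1 with DMSO replicate 2. The lowest log2 differences of Ednra and S1pr1 over the alternatives were 1.01 and 0.80. Among the other receptors, Tgfbr3 was higher in vehicle with 134 and 109 against 21.5 and 16.5 (2.68 ± 0.17, adjusted p = 2.89e-05) and Fgfr2 with 49.1 and 49.9 against 20.1 and 18.6. Lower in vehicle were Notch4 with 3.18 and 2.77 against 61.0 and 43.9, and the integrin chains Itga2 with 0.809 and 1.29 against 33.5 and 21.7 and Itgb3 with 6.02 and 4.64 against 64.0 and 42.3. Itga5, Itga3, Itga7 and Acvrl1 were also lower and Itga11 higher, but these calls were lost when a vehicle replicate was left out. The calls of Itga7 and Acvrl1 were also lost with only the 2 compared groups in the fit. Those of Acvrl1 and Itga11 were also lost with replicate as a block.

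**Figure D5:**
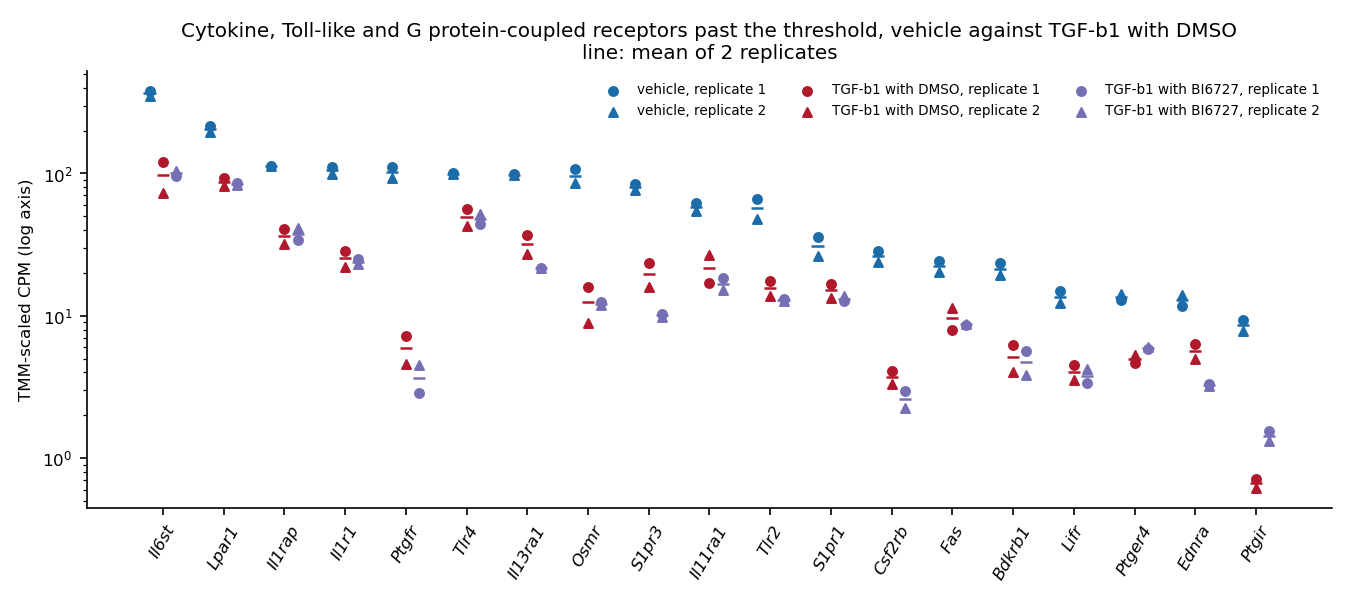
TMM-scaled CPM (y axis, log scale) of the 19 cytokine, Toll-like and G protein-coupled receptors past the threshold against TGF-b1 with DMSO, in each of the 6 libraries (circles, replicate 1; triangles, replicate 2; lines, group means). For each of the 19 both vehicle values lie above all 4 treated values. The log2 difference from TGF-b1 with DMSO runs from 4.10 for Ptgfr down to 1.01 for Tlr4. Of the calls, 6 of 11 cytokine and Toll-like receptors and 4 of 8 G protein-coupled receptors held under every alternative that gave a value. The genes were chosen by their difference from TGF-b1 with DMSO, so the gap to those libraries follows from the choice.

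Ligands went both ways. Of 74 tested, 14 were higher and 17 lower in vehicle than in TGF-b1 with DMSO, beside 3.23% and 2.75% of all genes. The median log2 difference was -0.17. Higher were Ptn, with 392 and 363 in vehicle, 29.7 and 33.6 in TGF-b1 with DMSO and 15.6 and 11.6 in TGF-b1 with BI6727 (3.58 ± 0.16, adjusted p = 5.27e-06), and Cxcl5, with 504 and 355 against 29.4 and 29.8 (3.86 ± 0.18, adjusted p = 6.46e-06). Ccl7 had 320.1 and 290 against 74.8 and 84.5, Fgf7 375 and 317.5 against 90.4 and 105, Kitl 439 and 499 against 188 and 175, and Fgf10 62.4 and 54.8 against 10.8 and 7.01. Lower in vehicle were Vegfa, with 94.4 and 101 against 602 and 582 (-2.60 ± 0.11, adjusted p = 5.26e-06), Hbegf, with 7.79 and 9.46 against 68.3 and 76.2, and Pdgfa, with 42.1 and 47.7 against 184 and 189. Fgf2, Vegfc, Efnb1, Wnt9a, Il11 and Lif were lower as well, by log2 differences of -1.77 to -3.03. The calls of Ccl2, Cxcl1, Il18, Cxcl12, Pros1, Vegfd and Hgf among the higher were lost without vehicle replicate 1. So were those of Tgfb1, Efna1, Clcf1, Ccl5 and Il6 among the lower. The calls of Cxcl12 and Il6 were also lost with only the 2 compared groups in the fit, and that of Il6 with replicate as a block. Those of Pros1 and Efna1 were also lost without TGF-b1 with DMSO replicate 2. Their log2 differences went down to 0.90 and 0.95 in size. Il1rl1, named above for its many counts, was not among the genes past the threshold.

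In the matrix, 15 of 69 genes tested were higher and 8 lower in vehicle, beside 3.23% and 2.75% of all genes. The median log2 difference was 0.23. Efemp1 had 372 and 321 in vehicle and 23.1 and 22.7 in TGF-b1 with DMSO (3.92 ± 0.14, adjusted p = 2.92e-06), Ccn5 had 144 and 114 against 25.0 and 18.8, Fbln5 had 382 and 363 against 137 and 98.2, and Spp1 had 1480 and 1432 against 519.5 and 572. Of the collagens, Col4a6 was higher with 87.1 and 91.8 against 18.8 and 10.9, and Col7a1, the anchoring fibril chain, was lower with 1.67 and 1.83 against 49.8 and 47.7 (-4.79 ± 0.16, adjusted p = 2.92e-06), as was Col5a3. The calls of Thbs2, Nid1, Lama4, Ccn3, Prelp, Col4a5, Col6a2, Col11a2, Col27a1, Ccn4, Postn and Thbs1 were lost when a vehicle replicate was left out. Those of Col6a2 and Ccn4 were also lost with only the 2 compared groups in the fit, and that of Ccn3 with replicate as a block. Col6a2 was lost as well under the study's filter of 10 CPM in more than 3 samples and without TGF-b1 with DMSO replicate 2. Ccn4 was lost without TGF-b1 with DMSO replicate 1. The log2 differences of Col6a2 and Ccn4 went down to 0.78 and 0.88 in size. Prelp had 50 and 48 counts in vehicle and 2 in each TGF-b1 with DMSO library, a ratio of 25.3 with a 95% counting interval of 9.56 to 94.6. Its fitted log2 difference stayed between 4.42 and 4.66 in every alternative that gave a value.

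Among the regulators, 15 of 120 tested were higher and 4 lower in vehicle, beside 3.23% and 2.75% of all genes, with a median log2 difference of 0.27; 5 of the 15 and 0 of the 4 kept the call under every alternative. The mesenchymal factors Osr1 (77.5 and 72.4 against 17.3 and 16.6, 2.14 ± 0.12, adjusted p = 1.96e-05) and Prrx2 (174.5 and 163 against 49.02 and 51.9) were higher, as were the orphan nuclear receptor Nr2f1 (98.0 and 89.8 against 16.99 and 11.9) and the imprinted Dlk1 (1056 and 977 against 279 and 316). The call of Prrx1, given above, also held under every alternative. The other higher calls, Snai2, En1, Vdr, Nr1h5, Hoxa2, Smad3, Smad9, Cdkn2c, Grb10 and Slc38a4, and the 4 lower ones, Smad7, Mdm2, Plk3 and Plagl1, were lost when a vehicle replicate was left out. Those of Vdr, Nr1h5, Hoxa2, Cdkn2c and Grb10 were also lost with only the 2 compared groups in the fit. Hoxa2 was lost with replicate as a block. En1 and Grb10 were lost without TGF-b1 with DMSO replicate 2, with log2 differences down to 0.9997 and 0.79. Cdkn2c was lost with DESeq2, with DESeq2 size factors in edgeR and without TGF-b1 with DMSO replicate 1. Its log2 difference went down to 0.948. Plk1 had 96.0 and 103 in vehicle, 70.7 and 68.9 in TGF-b1 with DMSO and 59.6 and 62.6 in TGF-b1 with BI6727, and did not pass against TGF-b1 with DMSO (0.51 ± 0.10, adjusted p = 0.0102).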

How the data were processed

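Deposited values were counts per gene for 6 libraries. Per the paper and the labels, the authors removed rRNA, sequenced on a BGISEQ-500, aligned reads to mm10 with Subjunc (Subread 1.6.4) and counted them with featureCounts on Gencode M20; strand, multimapping and overlap settings are not given in the sources used here. The Length column holds the exonic length in bases, a deposited value of no sample. A ratio of TPM between genes depends on this length, and isoforms were not separated. TPM and CPM were computed from the counts with Python 3.11.15. Biotypes and 50-base windows came from Gencode M21 and exon overlaps from the exon coordinates given with the counts. Symbols matched 54723 of 54752 gene IDs. The members and gene lists were chosen with earlier results of these data known. Named were the 25 genes of 200 bases or more with the highest TPM, list members, the 5 genes with the largest fold between vehicle replicates and the 10 with the largest fold each way against TGF-b1 with DMSO, at 10 TPM or more in the higher group; some of these genes are not reported here.

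Groups were compared with edgeR 4.0.16 (R 4.3.3), TMM scaling, filterByExpr and quasi-likelihood tests over 6 libraries, with Benjamini-Hochberg adjustment; DESeq2 1.42.0 was an alternative. Replicate numbers did not pair the samples (correlation of deviations over 14604 genes -0.0609 and 0.00525). Intervals and floors cover counting error only.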

Additional observations from a re-analysis of the deposited data

How the results depend on the processing

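With 1 library left out at a time, the genes at 1 TPM or more ranged from 13132 to 13235, list members at that level from 342 to 349, and the share of TPM in the 100 highest genes from 40.5% to 41.7%. That share was 50.3% with effective length, 34.8% without genes under 200 bases and mitochondrial genes, 26.2% with only nuclear protein-coding genes in the scale, an alternative chosen after seeing the data, and 19.3% as a share of counts, against 41.1% as reported. Leaving out 1 library, the genes higher and lower in vehicle ranged from 156 to 872 and from 137 to 591 against TGF-b1 with DMSO, lowest without vehicle replicate 1 and highest without TGF-b1 with DMSO replicate 1, and from 204 to 261 and from 135 to 193 against TGF-b1 with BI6727. The study's filter of 10 CPM in more than 3 samples, which cannot keep genes transcribed in vehicle alone, gave 241 and 244 against TGF-b1 with DMSO and 282 and 223 against TGF-b1 with BI6727. An adjusted p below 0.05 with no fold minimum gave 1610 and 1442, and 1759 and 1457. With the replicate block the counts were 440 and 370, and 493 and 311. Of 123 genes called against TGF-b1 with DMSO and named or listed, 62 kept the call under every alternative that gave a value, and 0 changed sign. At 3 counts the depth does not separate a silent gene from a rare mRNA, and overlapping or copied genes may be undercounted.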

Other observations

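The 5 genes that differed most between the vehicle libraries, among those at 10 TPM or more in either, were small RNAs and pseudogenes. Mir186 had 0 and 13 counts and Snord53 had 1 and 13. Gm5879 had 86.1 and 9.84 TPM, Gm5915 had 5.19 and 40.9 TPM, and Gm12895 had 36.7 and 151 TPM.

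In both vehicle libraries more genes had 2 counts (1495 and 1521) than had 1 (1037 and 1032), and 59.5% and 59.4% of counts from 1 to 20 were even, against 49.4% and 50.2% of counts over 200.

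The shortest gene models set the top of the TPM scale. Gm23935, with an exonic length of 57 bases, had 19535 and 29496 TPM, and Gm10736, with 78 bases, had 15601 and 17296 TPM.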
